A study of Mus musculus with 9 samples.

Results

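The genes described here encode receptors that guide T cells through blood vessel walls and out of lymphoid tissue: the integrin subunits Itga4, Itgb1, Itgb7, Itgal and Itgb2, the selectin ligand Selplg, the sphingosine-1-phosphate (S1P) receptors S1pr1 and S1pr4, and the hyaluronan receptor Cd44. These 9 genes were chosen by name, with earlier results of these data known. All 9 were found among the 25759 gene rows of the table and passed the filter on low values. None of them is a selectin.

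RNA sequencing covered 9 libraries of CD4+ T cells from C57BL/6 mice aged 8 to 12 weeks, 3 in each of 3 groups. Activated knockout (KO) cells came from mice with the genotype BMPR1a/CD4cre, in which Cre is expressed under the Cd4 promoter in developing T cells. Activated wild-type (WT) cells came from mice labelled WT. For both activated groups, unseparated spleen and lymph node cells were cultured for 3 days with the T cell mitogen ConA at 2 ug/ml and LPS at 10 ng/ml, and CD4+ cells positive for CD44 and negative for a green fluorescent Foxp3 reporter were then sorted. Naive WT cells were sorted without culture as CD44-negative and reporter-negative CD4+ cells. The Foxp3 reporter transgene was carried by the mice of all 3 groups. Activation, culture and the sort gates differ together between activated and naive cells and cannot be told apart. Whether replicates were separate mice or cultures is not stated in the labels, and the p-values measure no more than the spread between libraries, which may be partly technical.

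T cells roll along vessel walls on selectins and their ligands, and then arrest when integrins bind their counter-receptors on the endothelium. Integrins are heterodimers: alpha4 pairs with beta1 (VLA-4, which binds VCAM-1 and fibronectin) or with beta7 (the gut-homing integrin, which binds MAdCAM-1), and alphaL pairs with beta2 (LFA-1, which binds ICAM-1). S1PR1 lets T cells leave lymph nodes along an S1P gradient. The transcription factor KLF2 drives the gene for S1PR1 in T cells, and the activation marker CD69 holds S1PR1 inside the cell.

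The libraries were first checked against their labels. Levels are in FPKM, which counts fragments relative to transcript length and to the mapped fragments of the library, and no read depth is known for them. Cd4 averaged 306 ± 40.1 FPKM in activated KO, 347 ± 7.78 in activated WT and 312 ± 23.7 in naive WT cells (SD, n = 3 each). The targeted gene Bmpr1a was at 0.957, 1.93 and 1.20 FPKM in activated KO libraries and at 2.16, 2.92 and 1.40 FPKM in activated WT libraries, ranges that overlap, and the difference of -0.41 on the log2 scale was not called (limma adjusted p = 0.261). A value over the whole gene does not show whether a part of it was deleted. Markers of other blood cells were present. The summed level of 2 CD8 T cell markers was 219.6 to 279 FPKM in activated KO, 147 to 230.4 in activated WT and 9.48 to 41.4 in naive WT libraries. The sum of 9 myeloid markers was 7.96 to 12.2 FPKM in activated KO, 10.7 to 13.1 in activated WT and 74.1 to 809 in naive WT libraries, highest in naive WT replicate 2. The sum of 6 B cell markers was 129.9 to 196 FPKM in activated KO, 140.3 to 177 in activated WT and 3.13 to 183 in naive WT libraries. The sum of 6 NK cell markers was 162 to 215 FPKM in activated KO, 165 to 194 in activated WT and 28.5 to 65.4 in naive WT libraries, and that of 5 erythroid markers was 0.965 to 1.72 FPKM in activated KO, 0.816 to 1.02 in activated WT and 63.5 to 84.1 in naive WT libraries. The NK markers did not move together. Of 5 tested, limma called 3 higher and 2 lower in activated than in naive WT cells, and Ncr1 was at 0 in activated WT replicates 1 and 2. The neutrophil gene S100a8 was at 0 in activated KO replicate 1 and activated WT replicate 3. Foxp3 averaged 4.14 ± 1.85 FPKM in activated KO, 0.958 ± 0.0805 in activated WT and 2.65 ± 0.190 in naive WT cells, all sorted as reporter-negative. It was called by limma between KO and activated WT (log2 fold change 1.32, limma adjusted p = 0.0351) and between activated and naive WT (-0.90, limma adjusted p = 0.0157). Integrin, Selplg and Cd44 transcripts are also made by the other blood cells named above. The part of these cells in the values below, those of S1pr1, S1pr4 and Klf2 included, was not tested. In bulk samples such as these, fewer expressing cells and less RNA per cell cannot be told apart.

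Activated KO replicate 1 tended to be the highest library of its group for these genes. It had the highest value of the 3 KO libraries for 8 of the 9 genes, Itgal being the exception, and the lowest for 0 of them. Over all 15126 tested genes it was the highest for 35.9% and the lowest for 38.4%. KO replicate 3 was the lowest for 6 of the 9 genes and for 25.6% of all tested genes. Where leaving out KO replicate 1 makes or ends a KO call among the genes named below, the value without it is given. The library was singled out by the values of these same genes, so values without it are descriptions and no support for a difference. For a gene where it is the highest KO library, leaving it out lowers the KO mean by construction. Calls between KO and activated WT over all tested genes also rose without it, from 626 of 15126 to 1040 of 15093.

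Against naive WT cells, activated WT cells had more mRNA for Selplg, Itgb1, Itgal and Cd44 and less for Itga4. These were 5 of the 9 genes, called by limma at an adjusted p under 0.05, where 52.0% of all tested genes were called, so their share is near that of the whole table. The 4 higher genes compare with 26.2% of tested genes called higher, and the 1 lower gene with 25.8% called lower. Cd44 is among the 4 and was a marker of the sort. The median log2 fold change of all 9 genes was 0.45, against -0.0091 over all tested genes. Activated and naive libraries did not overlap for 7 of the 9 genes, and for 59.4% of all tested genes (29.6% higher and 29.8% lower in activated cells). The unadjusted p was under 0.05 for 6 of the 9 genes and for 58.0% of all tested genes. Between activated KO and activated WT cells, 0 of the 9 genes were called by limma, where 4.14% of all tested genes were (3.30% higher and 0.840% lower in KO). The unadjusted p was under 0.05 for 4 of them, S1pr1, S1pr4, Itgb1 and Itgb7, and for 25.0% of all tested genes. The groups did not overlap for 3 of the 9 genes, Itgb1, Itgb7 and Cd44, and for 31.2% of all tested genes (22.8% higher and 8.36% lower in KO).

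**Figure D1:**
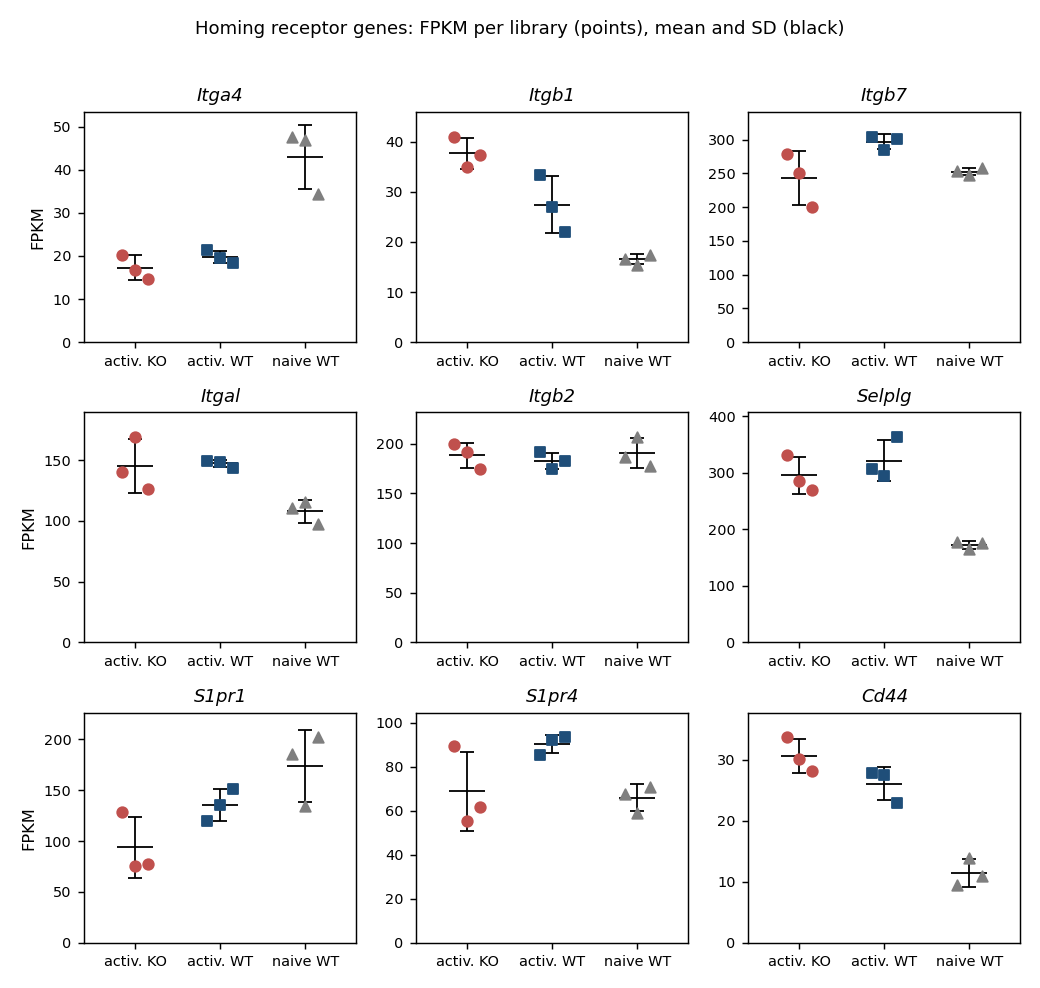
FPKM of the 9 homing receptor genes (vertical axes, each from 0) in the activated KO, activated WT and naive WT libraries (points, 3 per group), with the mean as a long bar and the SD as error bars. Itga4 is lower, and Selplg, Itgb1, Itgal and Cd44 are higher, in every activated WT library than in every naive WT library.

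Levels per length can be compared between genes. Among activated KO cells the mean FPKM ran from 17.3 ± 2.86 for Itga4 to 296 ± 32.5 for Selplg, in activated WT cells from 19.8 ± 1.48 for Itga4 to 322 ± 36.5 for Selplg, and in naive WT cells from 11.4 ± 2.30 for Cd44 to 253 ± 4.59 for Itgb7. In both activated groups the order of mean levels from the top was Selplg, Itgb7, Itgb2, Itgal, S1pr1, S1pr4, Itgb1, Cd44, Itga4. Within it, Selplg and Itgb7, and also Itgal and S1pr1, overlapped between libraries in each activated group. S1pr1 and S1pr4 overlapped in the KO libraries, and Itgb1 and Cd44 in the activated WT libraries. In naive WT cells the order was Itgb7, Itgb2, S1pr1, Selplg, Itgal, S1pr4, Itga4, Itgb1, Cd44, where S1pr1 overlapped with its neighbours Itgb2 and Selplg. Beta7 mRNA was thus above beta1 mRNA in all 3 groups, and alpha4 mRNA was above beta1 mRNA in naive cells and below it in both activated groups.

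Itga4 (ENSMUSG00000027009) encodes the alpha4 subunit and lies on the plus strand of chromosome 2 at 79255426 to 79333123 in GRCm38. Itgb1 (ENSMUSG00000025809), on the plus strand of chromosome 8 at 128685654 to 128733200, encodes beta1, and Itgb7 (ENSMUSG00000001281; chromosome 15, 102215995 to 102231944, minus strand) encodes beta7. The 150 bases before the RefSeq transcription start of these 3 genes are shown because alpha4 pairs with either beta1 or beta7 while, between activated and naive WT cells, Itga4 mRNA fell, Itgb1 mRNA rose and Itgb7 mRNA was not called. The sequences are from RefSeq (GRCm38.p6), 5′ to 3′ on the strand of the gene. Capitals mark matches to the letters CACCC (bound by KLF factors), GGGCGG (bound by Sp1), TGTGGT (bound by RUNX factors) or TGANTCA (bound by AP-1) on either strand.
Itga4, chr2:79255276-79255425, plus strand: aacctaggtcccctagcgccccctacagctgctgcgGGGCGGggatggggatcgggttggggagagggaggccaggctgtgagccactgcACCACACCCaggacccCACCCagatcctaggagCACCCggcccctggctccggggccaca
Itgb1, chr8:128685504-128685653, plus strand: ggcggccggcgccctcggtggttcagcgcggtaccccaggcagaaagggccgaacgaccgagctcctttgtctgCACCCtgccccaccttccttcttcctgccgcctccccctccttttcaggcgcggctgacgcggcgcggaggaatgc
Itgb7, chr15:102231936-102232085, minus strand: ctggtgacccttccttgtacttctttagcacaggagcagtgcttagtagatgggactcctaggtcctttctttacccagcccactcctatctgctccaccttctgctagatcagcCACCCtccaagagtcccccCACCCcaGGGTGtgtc
The Itga4 window held CACCC 3 times, GGGCGG once and TGTGGT once, the last overlapping the first CACCC. The Itgb1 window held CACCC once, and the Itgb7 window held it 3 times counting both strands. The last Itgb7 match, GGGTG, lies 9 to 5 bases before the RefSeq start and inside the gene span given above, which reaches 102231944. None of the 3 windows held TGANTCA. Among all 32851 RefSeq windows of this length, 37.4% held CACCC, 28.6% GGGCGG, 8.40% TGTGGT and 4.24% TGANTCA. G and C made up 70.7% of the bases in the Itga4 window, 70.0% in the Itgb1 window and 55.3% in the Itgb7 window, against a median of 54.0% over all windows. Promoter windows of 5 of the 9 genes were in the RefSeq table. Those of Selplg, S1pr1, Itgal and Itgb2 were not.

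Itga4 was at 21.3, 19.5 and 18.4 FPKM in activated WT libraries, against 47.7, 46.9 and 34.5 FPKM in naive WT libraries. Every activated WT library was below every naive one. The mean level in activated WT cells was 0.459 times that in naive cells, and the log2 fold change of -1.07 (SE 0.15) was called by limma (adjusted p = 0.000779). Activated KO libraries had 20.3, 16.8 and 14.7 FPKM. They overlapped with activated WT, and the difference of -0.20 (95% interval -0.55 to 0.16 on the log2 scale) was not called (limma adjusted p = 0.476). The 3′ end of Itga4 overlaps Cerkl, a ceramide kinase-like gene on the opposite strand (2, 79330543 to 79456785). The shared exon bases number 1124, which are 8.04% of the exon bases of Itga4 and 21.3% of those of Cerkl. Cerkl averaged 14.8 ± 2.41 FPKM in activated and 31.0 ± 1.94 FPKM in naive WT cells (log2 fold change -1.03, limma adjusted p = 0.000227). No strand setting is given in the sources used here, so reads of the shared part cannot be assigned.

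Itgb1 differed in the other direction. It was at 33.3, 27.1 and 22.0 FPKM in activated WT libraries and at 16.5, 15.5 and 17.5 FPKM in naive WT libraries, with no overlap. The activated mean was 1.66 times the naive one (limma log2 fold change 0.68, SE 0.14, adjusted p = 0.00424). KO libraries stood higher still, at 41.0, 34.9 and 37.3 FPKM, each above the 3 activated WT libraries. That difference, 1.37-fold between means and 0.46 on the log2 scale (95% interval 0.14 to 0.78), did not pass over all genes (limma adjusted p = 0.0965; exact permutation p = 0.1, the smallest that 3 against 3 libraries can give). With array quality weights, which give less weight to libraries that fit the group means less well, it was called (0.43, limma adjusted p = 0.0207, in a range of 0.0207 to 0.243 over the alternatives).

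Itgb7 was expressed at 304, 284 and 301 FPKM in activated WT libraries and at 253, 248 and 257 FPKM in naive WT libraries. The groups did not overlap, but the log2 difference of 0.23 (95% interval -0.034 to 0.49) was not called (limma adjusted p = 0.127). In activated KO libraries it was at 279, 251 and 199.9 FPKM, each below the activated WT libraries and with a wider spread (SD 40.3 FPKM in KO, 10.98 in activated WT). The log2 difference between KO and activated WT was -0.30 (95% interval -0.56 to -0.033), not called by limma (adjusted p = 0.157) except with array quality weights (-0.36, limma adjusted p = 0.0447, in a range of 0.0447 to 0.339 over the alternatives). KO replicate 3 was the lowest of the libraries, and without it the log2 difference was -0.16 (limma adjusted p = 0.339).

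Ratios of FPKM within a library do not depend on how libraries are scaled. The Itga4/Itgb1 ratio was 0.495, 0.480 and 0.393 in activated KO, 0.641, 0.722 and 0.836 in activated WT, and 2.89, 3.03 and 1.97 in naive WT libraries. Alpha4 mRNA therefore exceeded beta1 mRNA in each naive library and was below it in each of the 6 activated libraries. The groups did not overlap with each other at any step, and the mean log2 ratio differed by -0.68 between KO and activated WT and by -1.83 between activated and naive WT. The Itgb7/Itgb1 ratio was 6.80, 7.20 and 5.36 in activated KO, 9.14, 10.5 and 13.7 in activated WT, and 15.3, 16.0 and 14.7 in naive WT libraries. It also ran in 3 bands without overlap, with log2 differences of -0.77 between KO and activated WT and -0.49 between activated and naive WT. In contrast, the Itga4/Itgb7 ratio was 0.0728, 0.0667 and 0.0734 in KO and 0.0701, 0.0688 and 0.0611 in activated WT libraries, which overlapped (exact permutation p = 0.3), against 0.188, 0.189 and 0.134 in naive WT libraries. Of 10 such tests, 7 reached the exact permutation p of 0.1 that is the smallest possible here. It becomes 0.143 after Benjamini-Hochberg adjustment over the 10, so this design cannot take any of them past 0.05. The 10 are not separate tests, because some ratios share a gene and both comparisons use the activated WT libraries. No share over other gene pairs was computed. Among single tested genes, groups did not overlap for 59.4% between activated and naive WT and for 31.2% between KO and activated WT.

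**Figure D2:**
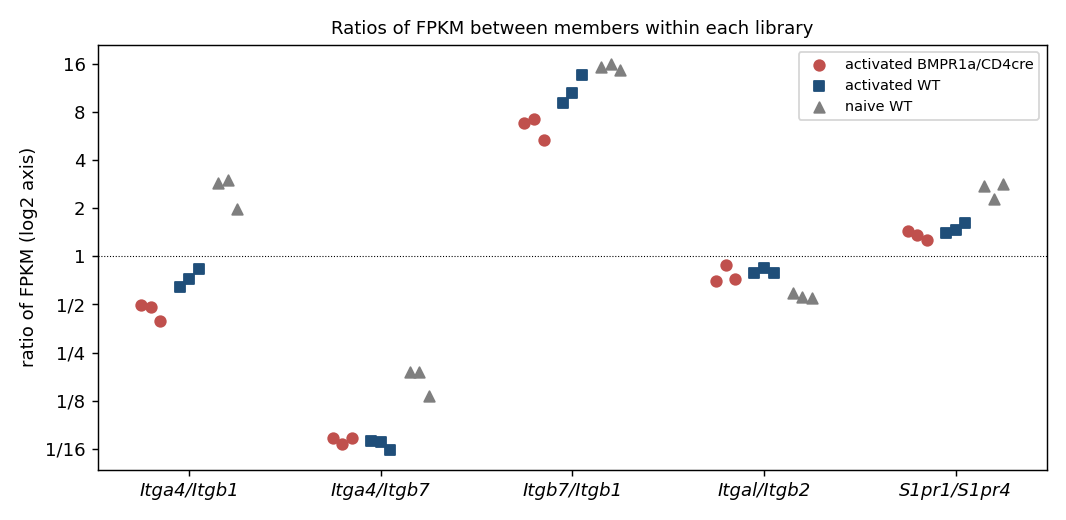
Ratio of FPKM between named members within each library (vertical axis, log2 scale), for activated BMPR1a/CD4cre (KO), activated WT and naive WT libraries, 3 points per group. The Itga4/Itgb1 ratio lies between 1.97 and 3.03 in naive libraries and below 1 (dotted line) in all activated ones, and the Itgb7/Itgb1 ratio is lowest in KO libraries.

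The LFA-1 subunits did not move together. Itgal (ENSMUSG00000030830, chromosome 7, 127296260 to 127335138, plus strand) encodes alphaL and was at 149.7, 148 and 144 FPKM in activated WT libraries, against 111, 116 and 97.3 FPKM in naive WT libraries. All activated WT libraries were above the naive ones, the mean 1.37-fold (log2 fold change 0.45, SE 0.11, limma adjusted p = 0.0106). This call was lost with quantile normalization (0.31, limma adjusted p = 0.0640, in a range of 0.00327 to 0.0640 over the alternatives). Itgb2 (ENSMUSG00000000290, chromosome 10, 77530252 to 77565708, plus strand) encodes the shared beta2 subunit of leukocyte integrins. It was at 191, 175 and 183 FPKM in activated WT libraries and at 187, 207 and 178 FPKM in naive WT libraries. These ranges overlap, and the log2 difference was -0.057 (95% interval -0.24 to 0.13; limma adjusted p = 0.577). The highest naive value of each subunit was in replicate 2, the library with the highest sum of myeloid markers. Without it the log2 difference of Itgal was 0.50 and still called (limma adjusted p = 0.0155), and that of Itgb2 was 0.0035. The Itgal/Itgb2 ratio was 0.783, 0.850 and 0.788 in activated WT and 0.592, 0.559 and 0.547 in naive WT libraries, with no overlap (log2 difference 0.51, exact permutation p = 0.1).

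Neither LFA-1 subunit differed by genotype beyond the spread. Itgal was at 140.2, 169 and 126 FPKM in activated KO libraries, on both sides of the activated WT range (log2 difference -0.032, 95% interval -0.29 to 0.23; limma adjusted p = 0.904). Itgb2 was at 199, 192 and 175 FPKM in KO libraries (log2 difference 0.043, 95% interval -0.14 to 0.23; limma adjusted p = 0.796). Differences as large as the ends of these intervals are not excluded by the 3 libraries per group.

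Selplg (ENSMUSG00000048163, chromosome 5, 113818536 to 113832644, minus strand) encodes PSGL-1, the main ligand of P-selectin on leukocytes. It was at 307, 295 and 363 FPKM in activated WT libraries and at 177, 165 and 177 FPKM in naive WT libraries. The groups lay far apart, with means 1.86-fold apart and the activated side higher (limma log2 fold change 0.89, SE 0.11, adjusted p = 0.000323). KO libraries, at 332, 286 and 269 FPKM, overlapped with activated WT libraries. Their log2 difference was -0.12 (95% interval -0.36 to 0.12) and was not called (limma adjusted p = 0.533).

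S1pr1 (ENSMUSG00000045092, chromosome 3, 115710433 to 115715072, minus strand) encodes the receptor for egress from lymph nodes. It was at 120.2, 136 and 152 FPKM in activated WT libraries and at 186, 134 and 202 FPKM in naive WT libraries. The ranges overlap through naive WT replicate 2, and the log2 difference of -0.34 (95% interval -0.88 to 0.20) was not called (limma adjusted p = 0.256). Activated KO libraries had 129, 75.1 and 78.0 FPKM. Replicates 2 and 3 were below every activated WT library, and replicate 1 was within their range. Over all 3 KO libraries the log2 difference from activated WT was -0.57 (95% interval -1.10 to -0.027) and was not called (limma adjusted p = 0.180). Without KO replicate 1 it was -0.81 and was called (limma adjusted p = 0.0463, in a range of 0.0332 to 0.430 over the alternatives).

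S1pr4 (ENSMUSG00000044199, chromosome 10, 81497747 to 81500132, minus strand), a second S1P receptor found mainly on blood cells, showed the same split of the KO libraries. It was at 89.4, 55.3 and 61.9 FPKM in activated KO libraries and at 85.5, 92.3 and 93.4 FPKM in activated WT libraries. KO replicate 1 was within the activated WT range, and the other 2 were below it. The log2 difference was -0.42 (95% interval -0.80 to -0.034; limma adjusted p = 0.168) and, without KO replicate 1, -0.62 (limma adjusted p = 0.0204, in a range of 0.0204 to 0.397 over the alternatives). Naive WT libraries were at 67.8, 59.1 and 71.0 FPKM, all below the activated WT libraries. This difference between activated and naive WT, 0.45 on the log2 scale (SE 0.17), lay at the threshold (limma adjusted p = 0.0506) and passed under 7 of 18 alternatives (range 0.00506 to 0.139). The S1pr1/S1pr4 ratio was 1.41, 1.47 and 1.62 in activated WT against 2.74, 2.27 and 2.84 in naive WT libraries, without overlap (log2 difference -0.80, exact permutation p = 0.1). In KO libraries the ratio was 1.44, 1.36 and 1.26 and overlapped with activated WT (exact permutation p = 0.2).

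Klf2 showed the split of the KO libraries too. It was at 95.9, 53.0 and 56.3 FPKM in activated KO, 93.4, 103 and 106 in activated WT, and 149.9, 141 and 179 in naive WT libraries. Every activated WT library was below every naive one (log2 fold change -0.63, limma adjusted p = 0.0385). Of 18 alternatives, 8 ended this call, among them each of the 6 that drop a naive or activated WT library (limma adjusted p up to 0.108). The KO difference from activated WT was -0.60 (limma adjusted p = 0.134) and, without KO replicate 1, -0.87 (limma adjusted p = 0.0122). Across the 9 libraries, log2(FPKM + 1) of Klf2 and S1pr1 had a Pearson r of 0.96, and that of Klf2 and S1pr4 of 0.22. These points share 3 groups and their libraries, so the values are descriptions.

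**Figure D3:**
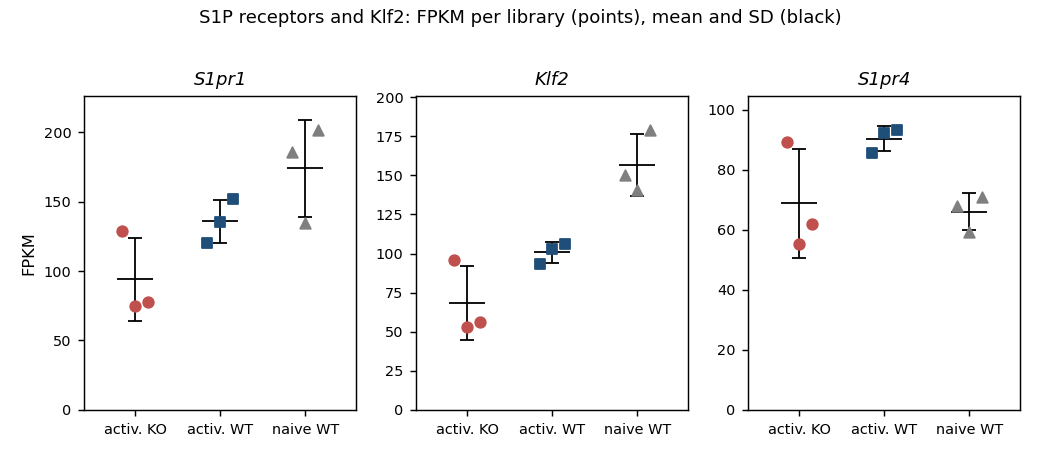
FPKM of S1pr1, Klf2 and S1pr4 (vertical axes, each from 0) in the activated KO, activated WT and naive WT libraries (points, 3 per group), with the mean as a long bar and the SD as error bars. For each of the 3 genes, KO replicate 1 is above KO replicates 2 and 3, at 129 against 75.1 and 78.0 FPKM for S1pr1.

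Cd44 (ENSMUSG00000005087, chromosome 2, 102811141 to 102901665, minus strand) binds hyaluronan and is a standard marker of activated T cells. Because the groups were sorted by CD44, its difference between activated and naive cells is a description. It was at 27.7, 27.4 and 22.9 FPKM in activated WT libraries and at 9.42, 13.9 and 10.97 FPKM in naive WT libraries. The sort and the mRNA point the same way, by 2.27-fold between the means. Activated KO libraries had 33.6, 30.0 and 28.2 FPKM, each above the activated WT libraries, and both groups had passed the same gate. Their log2 difference of 0.23 (95% interval -0.10 to 0.56) was not called (limma adjusted p = 0.366).

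**Figure D4:**
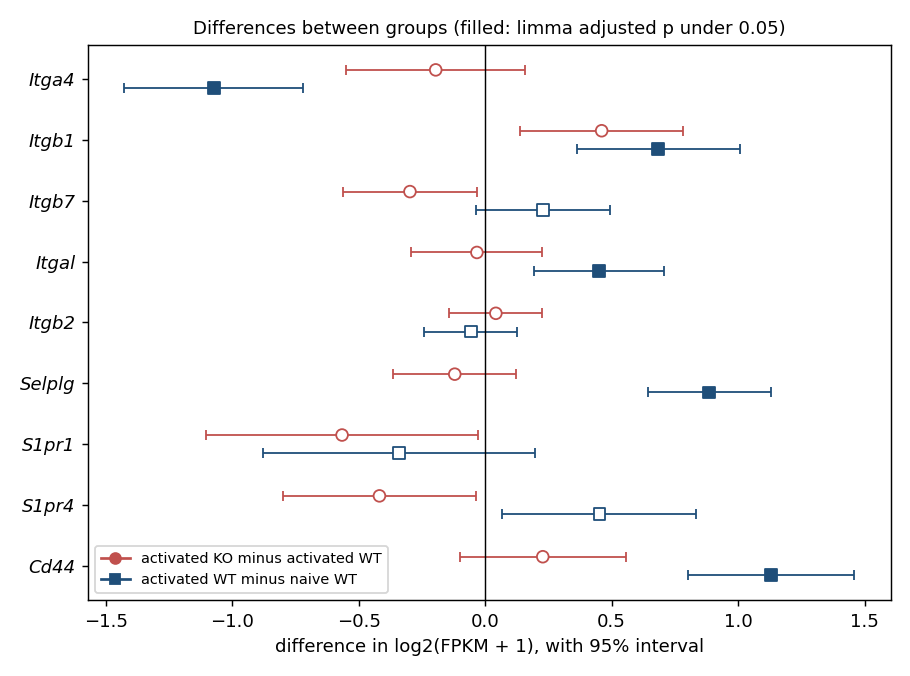
Difference in log2(FPKM + 1) for each gene (horizontal axis) with its 95% interval, for activated KO minus activated WT (circles) and activated WT minus naive WT (squares). Filled symbols mark limma adjusted p under 0.05: 5 genes between activated and naive WT, and 0 between KO and activated WT. Both comparisons use the activated WT libraries.

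By nearest pattern, each gene was set beside the protein-coding gene, of 8253 with a mean of at least 5 FPKM, whose log2(FPKM + 1) had the highest Pearson r with it over the 9 libraries. These were Ankhd1 for Itga4 (0.99), Emd for Itgb1 (0.99), Cd48 for Itgb7 (0.96), Picalm for Itgal (0.97), Zscan21 for Itgb2 (0.95), Tbc1d9b for Selplg (0.99), Smpdl3a for S1pr1 (0.98), Spn for S1pr4 (0.97) and Lxn for Cd44 (0.99). The next were Itpr3 for Itga4 (0.99), 4930579G24Rik for Itgb1 (0.99), Aaed1 for Itgb7 (0.92), Odr4 for Itgal (0.97), Cap1 for Itgb2 (0.94), Wdtc1 for Selplg (0.99), Ccpg1 for S1pr1 (0.96), Atg12 for S1pr4 (0.96) and Uba3 for Cd44 (0.99). The libraries fall into 3 groups, and a shared difference between groups is enough for a high r. Smpdl3a, a sphingomyelinase-like phosphodiesterase gene, was at 35.6, 24.5 and 23.1 FPKM in activated KO, 30.3, 36.2 and 36.6 in activated WT, and 45.8, 38.6 and 49.1 in naive WT libraries. Spn encodes CD43, another selectin ligand of T cells, and was at 186, 139.7 and 149 FPKM in activated KO, 186, 181 and 176 in activated WT, and 159, 145 and 163 in naive WT libraries. For both, as for S1pr1 and S1pr4, KO replicate 1 was within the activated WT range and KO replicates 2 and 3 were below it. Both genes were picked by their r over these same libraries, KO replicate 1 included, so this likeness is no support for the split.

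Some genes of selectins and of selectin ligand synthesis rose in activated WT cells. Of 16 listed selectin and ligand synthesis genes in the table, 14 were tested, and 9 rose and 0 fell against naive WT cells. Rises and falls counted for this list and the lists below are limma calls. Of all tested genes, 26.2% were called higher and 25.8% lower in this comparison. The median log2 fold change of the 14 genes was 0.53. Between KO and activated WT, 0 of the 14 were called by limma. Over all tested genes 4.14% were, the share to set beside the KO counts of the lists below too. Among the genes that rose with activation were Selp, which encodes P-selectin (6.17 ± 1.44 FPKM in activated WT and 0.321 ± 0.155 in naive WT cells, limma adjusted p = 5.14e-05), and Chst2, a sulfotransferase for selectin ligands (5.39 ± 0.977 and 0.242 ± 0.0856 FPKM in activated and naive WT, limma adjusted p = 1.71e-05). Cd24a rose as well (log2 fold change 1.18, limma adjusted p = 0.0263), a call lost with only the 6 libraries compared and without activated WT replicate 2 or 3 or naive WT replicate 1 or 2 (limma adjusted p up to 0.0841 over the alternatives). Fut7, the fucosyltransferase that makes PSGL-1 able to bind P-selectin, was picked after its values were seen. It averaged 2.97 ± 0.504 FPKM in activated WT and 0.199 ± 0.0805 in naive WT cells (log2 fold change 1.72, limma adjusted p = 0.000163).

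Other integrin subunits moved in both directions in activated WT cells. Of 21 listed, 12 were tested, and 5 rose and 2 fell (median log2 fold change -0.098), where 26.2% of all tested genes were called higher and 25.8% lower. Itga6, the laminin receptor subunit alpha6, fell to 32.0 ± 2.40 FPKM in activated WT, against 64.1 ± 6.41 in naive WT cells (log2 fold change -0.98, limma adjusted p = 0.00112). Itgb3, the beta3 subunit, rose to 53.2 ± 3.88 FPKM, against 28.4 ± 1.99 in naive WT cells (log2 fold change 0.88, limma adjusted p = 0.00713). Itgae, which encodes the alphaE partner of beta7 that binds E-cadherin, was at 3.32, 5.35 and 9.05 FPKM in activated WT and 0.534, 0.435 and 1.41 FPKM in naive WT libraries (log2 fold change 1.90, limma adjusted p = 0.00294). CD8 T cells also express Itgae, and the CD8 marker sums given above moved with it. Their part in the result was not tested. Itga7 was uneven within activated WT, at 20.7, 26.6 and 5.07 FPKM (log2 fold change 2.01, limma adjusted p = 0.0332), and this call was lost with no filter on low values and when any naive library or activated WT replicate 1 or 2 was left out (limma adjusted p up to 0.107 over the alternatives). Between KO and activated WT, 0 of the 12 were called by limma. Itgb3 repeated the split of the KO libraries, at 52.0, 32.7 and 28.0 FPKM in activated KO and 54.8, 56.0 and 48.8 FPKM in activated WT libraries. Its log2 difference was -0.54 (limma adjusted p = 0.148) and, without KO replicate 1, -0.79 and called (limma adjusted p = 0.0122, in a range of 0.0122 to 0.379 over the alternatives). Itga6 was likewise called without KO replicate 1 (log2 difference -0.59, limma adjusted p = 0.0267) and not with it (-0.42, limma adjusted p = 0.138, in a range of 0.0233 to 0.354 over the alternatives).

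In the S1P pathway list, 10 of 18 genes were tested, and 2 rose and 6 fell in activated WT cells (median log2 fold change -0.39). The shares over all tested genes were 26.2% called higher and 25.8% called lower. Besides Klf2, Cd69 fell, with 28.8 ± 2.52 FPKM in activated WT and 52.9 ± 19.7 in naive WT cells (log2 fold change -0.80, limma adjusted p = 0.0204), a call lost without activated WT replicate 1 (limma adjusted p = 0.0655). The naive libraries were uneven, at 37.1, 75.0 and 46.7 FPKM, highest in replicate 2, which also had the highest sum of myeloid markers. Without that library the log2 fold change of Cd69 was -0.52 (limma adjusted p = 0.0204). Sgpl1, the lyase that breaks down S1P, fell too (12.9 ± 0.999 and 21.5 ± 2.08 FPKM in activated and naive WT, log2 fold change -0.70, limma adjusted p = 0.000469). Gnai3, a G protein subunit of the inhibitory class, rose (log2 fold change 0.34, limma adjusted p = 0.00170). None of the 10 was called between KO and activated WT. For Cd69 the KO mean was 30.3 ± 3.73 FPKM and the activated WT mean 28.8 ± 2.52 FPKM (adjusted p = 0.906 by limma).

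Of 24 integrin activation and adaptor genes, 22 were tested, and 8 rose and 6 fell in activated WT cells (median log2 fold change -0.016), where 26.2% of all tested genes were called higher and 25.8% lower. Among the falls at the same level, the largest were those of Rasgrp2, the exchange factor that activates RAP1 (169 ± 15.6 FPKM in activated WT and 336 ± 29.2 in naive WT cells, log2 fold change -0.99, limma adjusted p = 8.91e-05), Apbb1ip, which encodes the RAP1 effector RIAM (41.3 ± 2.06 FPKM in activated WT and 74.3 ± 2.38 in naive WT cells, log2 fold change -0.83, limma adjusted p = 7.23e-05), and Cyth1, a cytohesin that binds beta2 (log2 fold change -0.54, limma adjusted p = 0.0104). Among the rises with at least 5 FPKM in the higher group, the largest were those of the adaptor gene Skap2 (27.1 ± 0.673 FPKM in activated WT and 8.39 ± 1.47 in naive WT cells, log2 fold change 1.59, limma adjusted p = 3.22e-05), the focal adhesion gene Zyx (0.68, limma adjusted p = 0.00102) and the cytohesin-binding gene Cytip (0.64, limma adjusted p = 0.00192). None of the 22 was called between KO and activated WT cells over all libraries. Without KO replicate 1, Zyx was called (log2 difference -0.34, limma adjusted p = 0.0409), against -0.23 with it (limma adjusted p = 0.219, in a range of 0.0378 to 0.512 over the alternatives).

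Only 4 of 12 integrin counter-receptor genes passed the filter. Of these, 2 rose and 2 fell in activated WT cells, where 26.2% of all tested genes were called higher and 25.8% lower. In activated WT cells Icam1, an LFA-1 ligand, rose (14.5 ± 1.90 FPKM against 8.91 ± 0.804 in naive WT cells, log2 fold change 0.64, limma adjusted p = 0.00175), and so did Spp1. Icam2 fell (57.4 ± 4.57 FPKM against 75.3 ± 2.97 in naive WT, log2 fold change -0.39, limma adjusted p = 0.0282), a call lost without naive WT replicate 1 or 2 or activated WT replicate 1 or 2 (limma adjusted p up to 0.0880 over the alternatives). Fn1, a fibronectin gene expressed by myeloid and stromal cells, fell too, at 0.0178, 0.0156 and 0.0162 FPKM in activated WT libraries and 0.505, 5.19 and 1.03 FPKM in naive WT libraries, which were uneven. Naive WT replicate 2, highest for Fn1, had the highest sum of myeloid markers. The Fn1 call (log2 fold change -1.39, limma adjusted p = 0.0325) was lost when any activated WT library was left out. It was also lost with array quality weights, with no filter, with only the 6 libraries compared and with a pseudocount of 5 (limma adjusted p up to 0.0817 over the alternatives). With naive WT replicate 2 left out, the gene did not pass the filter on low values. Icam1 and Icam2 were not called between KO and activated WT cells (limma adjusted p = 0.0970 and 0.127). Without KO replicate 1, Icam2 was called (log2 difference -0.49, against -0.35 with it, limma adjusted p = 0.0230, in a range of 0.0230 to 0.337 over the alternatives). Of 13 partners and ligand enzymes of CD44, 8 were tested, and 3 rose and 2 fell in activated WT cells, where 26.2% of all tested genes were called higher and 25.8% lower. Hmmr, a hyaluronan-binding protein of the mitotic spindle, rose to 25.4 ± 8.13 FPKM in activated WT, against 1.18 ± 0.214 in naive WT cells (log2 fold change 3.56, limma adjusted p = 1.45e-05). Adam10, a protease that sheds CD44, rose by 0.29 (limma adjusted p = 0.0253), a call lost with quantile normalization, without any activated WT replicate in turn or without naive WT replicate 3 (limma adjusted p up to 0.0628 over the alternatives). Rdx, which encodes the membrane-actin linker radixin, was called in both comparisons. It was at 35.3, 36.9 and 37.2 FPKM in activated KO, 30.7, 28.9 and 27.1 in activated WT, and 34.5, 34.9 and 32.5 in naive WT libraries. The KO libraries were all above the activated WT ones (log2 fold change 0.33, SE 0.063, limma adjusted p = 0.0382), and the activated WT libraries were all below the naive ones (log2 fold change -0.23, limma adjusted p = 0.0169). The KO call was lost under 10 of 18 alternatives, among them median-of-ratios scaling, quantile normalization, a fit of only the 6 libraries compared and leaving out KO replicate 2 or 3, activated WT replicate 2 or 3 or naive WT replicate 1 or 2 (range 0.00588 to 0.145). The call between activated and naive WT was lost with median-of-ratios scaling and without naive WT replicate 1 or activated WT replicate 3 (range 0.00161 to 0.0565). Rdx was the only call between KO and activated WT among the genes of the 6 related lists reported here. These lists held 12, 14, 10, 22, 4 and 8 tested genes, and 4.14% of all tested genes were called in this comparison. A single call is therefore no result about these lists.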

How the data were processed

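RNA from 9 sorted CD4+ T cell samples was sequenced, and the authors deposited the FPKM values of all libraries as 1 table. TopHat2, Cufflinks, Cuffdiff and the build GRCm38 are named, per the submitters' processing notes. Tool versions, annotation and strand setting were not given in the sources used here. Deposited FPKM values are fractional estimates, so the depth behind them is unknown and no counting interval was computed. Of 25759 gene rows, 24876 matched a symbol, and coordinates are from GENCODE M21 on GRCm38. Genes averaging 0.5 FPKM or more, 15126 in number, entered limma 3.58.1 (R 4.3.3, moderated test with intensity trend) as log2(FPKM + 1), in 1 fit of group means over all 9 libraries. Two-sided p-values were adjusted over these genes by Benjamini-Hochberg, with calls made under 0.05. Fold changes on this scale understate those of low genes. Ratios were compared by two-sided exact permutation tests (scipy 1.17.1). The fit was tested on simulated data. Alternatives changed the pseudocount, the filter, the scaling, the library weights, the libraries in the fit and a replicate block. From each of 6 related lists, up to 3 called genes per comparison and direction with the largest change and at least 5 FPKM in the higher group were named, with Klf2 and Cd69 always named. A further gene is not reported here. The members and lists were chosen with earlier results of these data known.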

Additional observations from a re-analysis of the deposited data

How the results depend on the processing

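Selplg, Itga4 and Itgb1 kept their direction and their call between activated and naive WT cells under all 18 alternatives. Cd44 did so too, but the groups were sorted by CD44, so for this gene it is a description. The number of the 9 genes called in that comparison, 5, ran from 4 with quantile normalization to 7 with array quality weights or with only the 6 libraries compared, and from 5 to 6 when a library was left out. Over all tested genes, calls numbered 7863 of 15126 in the main fit and 8095 of 15126 with quantile normalization. They numbered 10105 of 15126 with array quality weights and 7226 of 14989 with only the 6 libraries compared. S1pr1 was called only with array quality weights (-0.43, limma adjusted p = 0.0448), and Itgb7 with only the 6 libraries compared or without KO replicate 3. Between KO and activated WT cells the number called, 0, became 4 with array quality weights (S1pr1, S1pr4, Itgb1 and Itgb7), and ran from 0 to 2 when a library was left out, the 2 being S1pr1 and S1pr4 without KO replicate 1. Calls over all tested genes rose under these settings too, from 626 of 15126 to 3851 of 15126 with array quality weights and to 1040 of 15093 without KO replicate 1. Differences close to 0 turned round in 3 cases, and the cause was not tested. Itgb2 between KO and activated WT was -0.034 with median-of-ratios scaling, Itgb2 between activated and naive WT ran from -0.10 to 0.0035 when a library was left out, and Itgal between KO and activated WT ran from -0.15 to 0.063. Ratios kept their direction under all alternatives tried.

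Over all genes, 626 were called between KO and activated WT, 79.7% of them higher in KO. The count was 306 with median-of-ratios scaling (54.2% higher), 324 with quantile normalization (56.5% higher), 416 with no filter, 3851 with array quality weights and 100 when the fit held just the 6 libraries compared, and ran from 64 to 1040 when a library was left out.

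Libraries with the same replicate number deviated together only weakly: the correlation of their deviations from the group means was positive but small in all 9 pairings, 0.0027 to 0.054, and the own number was the best match in 12 of 18 comparisons, so the numbers were not taken to pair the libraries. With the replicate block, 5 of the 9 genes were called between activated and naive WT and 0 between KO and activated WT, as without it. Among the related genes named by rule, the block ended the calls of Rdx between KO and activated WT and of Klf2 and Icam2 between activated and naive WT. Over all genes the block gave 7447 calls, against 7863 without it, and 58 against 626. Read depth is unknown, which limits what can be said of genes near 0.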
